A study of Mus musculus with 15 samples.

Results

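The gelsolin family is a set of actin-binding proteins built from repeats of the gelsolin domain. The 7 genes described are Gsn, Capg, Scin, Flii, Svil, Avil and Vill, chosen as members of the family, out of 21669 genes with a symbol in the deposited table. Of the 7, 6 passed the expression filter that left 11299 genes for testing, and Scin did not. RNA was sequenced from 5 groups of mouse B cells, all from wild-type female C57BL/6J mice, which the methods place at 6 to 9 weeks of age. Naive B cells (nB) were the CD43- fraction of the spleen and were not cultured. B cells with the surface phenotype B220+GL7+CD138- (activated cells, actB) and CD138+ cells (plasmablasts, Pb) were sorted from cultures of the CD43- cells after 3 days with LPS, IL2 and IL5, together with either the solvent DMSO or 2 µM GSK343, an inhibitor of the histone methyltransferase EZH2. The sample labels of the Pb GSK343 libraries name IL6 in place of IL5, so that in comparisons with that group cytokine and drug cannot be told apart on the labels as written. The cultures hold cells at many division stages, and each sorted population is defined by its surface markers alone. GSK343 acts on all cells of the culture, and the groups are compared within a sort gate.

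Actin filaments grow mainly at one end, the barbed end. Many gelsolin family proteins bind there. Some of them also cut filaments when calcium rises, which lets a cell take its cortex apart quickly and build it again. In lymphocytes the actin cortex limits the movement of the antigen receptor and is rebuilt when the cell adheres, migrates or divides. EZH2 places H3K27me3, a repressive mark, and Prdm1 encodes Blimp-1, the repressor that shuts down much of the B cell program in plasma cells.

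Promoter sequence is shown for Gsn, the member with the widest range of levels, and for Capg, the member with the highest level per deposited gene length. Each window runs from 250 bases before to 50 bases after a RefSeq start site (GRCm38.p6), is given 5′ to 3′ on the plus strand, and matched mm9 exactly once. Capitals mark the letters GAAAGT, the core of sites bound by Blimp-1, or AGGAAGT, a motif of ETS factors, each searched on both strands. These motifs do not overlap in the windows.
Gsn, chr2:35111629-35111928: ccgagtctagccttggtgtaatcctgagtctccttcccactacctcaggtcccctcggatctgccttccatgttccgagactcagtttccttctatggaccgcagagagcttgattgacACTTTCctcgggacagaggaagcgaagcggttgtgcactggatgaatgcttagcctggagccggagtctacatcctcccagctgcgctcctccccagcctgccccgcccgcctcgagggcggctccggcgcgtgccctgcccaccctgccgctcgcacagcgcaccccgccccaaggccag
Gsn, chr2:35122014-35122313: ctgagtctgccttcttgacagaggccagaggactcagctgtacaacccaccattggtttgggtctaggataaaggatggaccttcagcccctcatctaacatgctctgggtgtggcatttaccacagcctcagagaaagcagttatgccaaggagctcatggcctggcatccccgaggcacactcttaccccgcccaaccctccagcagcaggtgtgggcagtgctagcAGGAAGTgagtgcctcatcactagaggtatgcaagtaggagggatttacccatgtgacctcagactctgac
Gsn, chr2:35137650-35137949: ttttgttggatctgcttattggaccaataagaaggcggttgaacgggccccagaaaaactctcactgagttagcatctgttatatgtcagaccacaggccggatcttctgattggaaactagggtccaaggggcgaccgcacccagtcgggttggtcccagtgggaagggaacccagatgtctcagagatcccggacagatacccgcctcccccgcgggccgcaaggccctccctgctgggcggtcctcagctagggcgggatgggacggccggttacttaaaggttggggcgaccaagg
Capg, chr6:72499391-72499690: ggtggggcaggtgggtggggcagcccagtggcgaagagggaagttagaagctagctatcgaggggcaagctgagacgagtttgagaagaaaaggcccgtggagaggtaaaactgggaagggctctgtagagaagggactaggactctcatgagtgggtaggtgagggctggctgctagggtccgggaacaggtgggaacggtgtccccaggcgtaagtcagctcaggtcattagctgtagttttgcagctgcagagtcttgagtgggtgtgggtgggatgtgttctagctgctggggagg
The first Gsn window held GAAAGT once, on the minus strand (ACTTTC as printed), letters that 14.3% of all 32851 promoter windows hold. The middle Gsn window held AGGAAGT once, which 9.35% of windows hold. The last Gsn window and the Capg window held neither. CpG content separated the windows, with 20, 2 and 16 CpG in the 3 Gsn windows, 7 in Capg, 26 in Flii, 16 in Scin, 7 in Vill and 2 in Avil, against quartiles of 3, 7 and 20 over all windows. Transcript starts of the mm9 annotation fell in the first and in the last Gsn window (1 each) and not in the other.

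The members lie on different chromosomes in the mm9 annotation. Gsn (gelsolin, Entrez 227753), which cuts and caps filaments, is at chr2:35111927-35163420 on the plus strand. Capg (Entrez 12332), which caps without cutting, is at chr6:72494385-72512977 on the plus strand, and Flii (flightless, Entrez 14248), which joins leucine-rich repeats to gelsolin repeats, is at chr11:60527625-60540765 on the minus strand. Svil (supervillin, Entrez 225115), which ties filaments and myosin to the membrane, is at chr18:4920538-5119297 on the plus strand. Avil (advillin, Entrez 11567), best known from sensory neurons, is at chr10:126437765-126458050 on the plus strand. Vill (villin-like, Entrez 22351) is at chr9:118961896-118980643 on the plus strand, and Scin (scinderin, a second filament-cutting member, Entrez 20259) is at chr12:40786356-40860815 on the minus strand. Exons of Flii share 64 bases with Llgl1 and exons of Avil share 165 bases with Tsfm, each on the opposite strand, and since strand use in counting is not stated, reads there cannot be assigned to one gene.

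The libraries held 19421830 to 26307413 reads, so that 3 reads equalled 0.114 to 0.154 reads per 1000000 (RPM). The deposited nB replicates 1 and 2 differed by less than sampling noise (chi-square per degree of freedom 0.00947, against 3.57 or more for every other pair of replicates) and were counted as 1 sample. There were thus 2 naive libraries, and 3 in each cultured group. Levels are RPKM, reads per kilobase of gene and 1000000 reads. In bulk RNA, fewer cells of a type and less RNA per cell cannot be told apart. The summed RPKM of 8 B cell markers was 3943 to 4015 in nB, 1936 to 2229 in actB DMSO and 935.2 to 954.1 in Pb DMSO, and that of 6 plasma cell markers was 214.6 to 231.2, 484.9 to 522.3 and 3083 to 3234, in the order of the labels. Of the plasma cell markers, Prdm1, Xbp1 and Jchain rose from nB to actB DMSO. Irf4 and Tnfrsf17 did not rise there, and Sdc1 fell from 5.12 to 5.22 RPKM in nB to between 0.532 and 0.769. Each of these markers was highest in Pb DMSO among these groups. The nB libraries also held transcripts of other cells: the 11 measured markers of monocytes, macrophages and granulocytes summed to 252.2 and 309.9 RPKM, with Lyz2 at 152.0 to 180.4, 8 T and NK cell markers summed to 28.4 and 30.4, and platelet and red cell markers summed to 34.9 and 138.3. In the cultured groups Lyz2 was at most 1.13 RPKM, Csf1r at most 0.0484 and the T and NK cell sum at most 0.984. Other myeloid markers stayed higher in actB DMSO, with Mpeg1 at 48.1 to 84.9 RPKM and Itgam at 3.51 to 4.66. The monocyte, macrophage and granulocyte sum was 53.7 to 89.2 RPKM in actB DMSO and 4.48 to 7.99 in Pb DMSO. The platelet and red cell sum was 9.53 to 13.1 RPKM in actB DMSO and 2.15 to 2.69 in Pb DMSO. Ezh2, whose product GSK343 inhibits, was at 14.03 ± 0.356 RPKM (SD, n = 2) in nB, 101.2 ± 6.26 in actB DMSO and 77.6 ± 5.62 in Pb DMSO (SD, n = 3 each). With GSK343 its level was 120.4 ± 12.4 RPKM in actB and 82.6 ± 4.33 in Pb (SD, n = 3 each), differences for which no test is given.

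Per deposited gene length, Capg had the highest level of the family in every group, whereas Flii had more reads: 247.9 RPM against 229.4 for Capg in nB, 160.0 against 143.0 in actB DMSO and 136.9 against 115.5 in Pb DMSO (means). Summed over the 7 genes, the family reached 294.9 ± 4.52 RPKM in nB (SD, n = 2), 171.0 ± 17.1 in actB DMSO, 173.2 ± 11.8 in actB GSK343, 133.4 ± 4.93 in Pb DMSO and 119.4 ± 3.94 in Pb GSK343 (SD, n = 3 each). Capg supplied 62.3% of that sum in nB and 69.3% in Pb DMSO, and Flii 20.3% and 24.8%. Gsn went from 14.5% in nB to 7.45% in actB DMSO and 0.957% in Pb DMSO. These shares, and the rank of Capg, depend on the deposited length, which for Capg was 1249 bases against 2529 annotated exon bases.

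**Figure D1:**
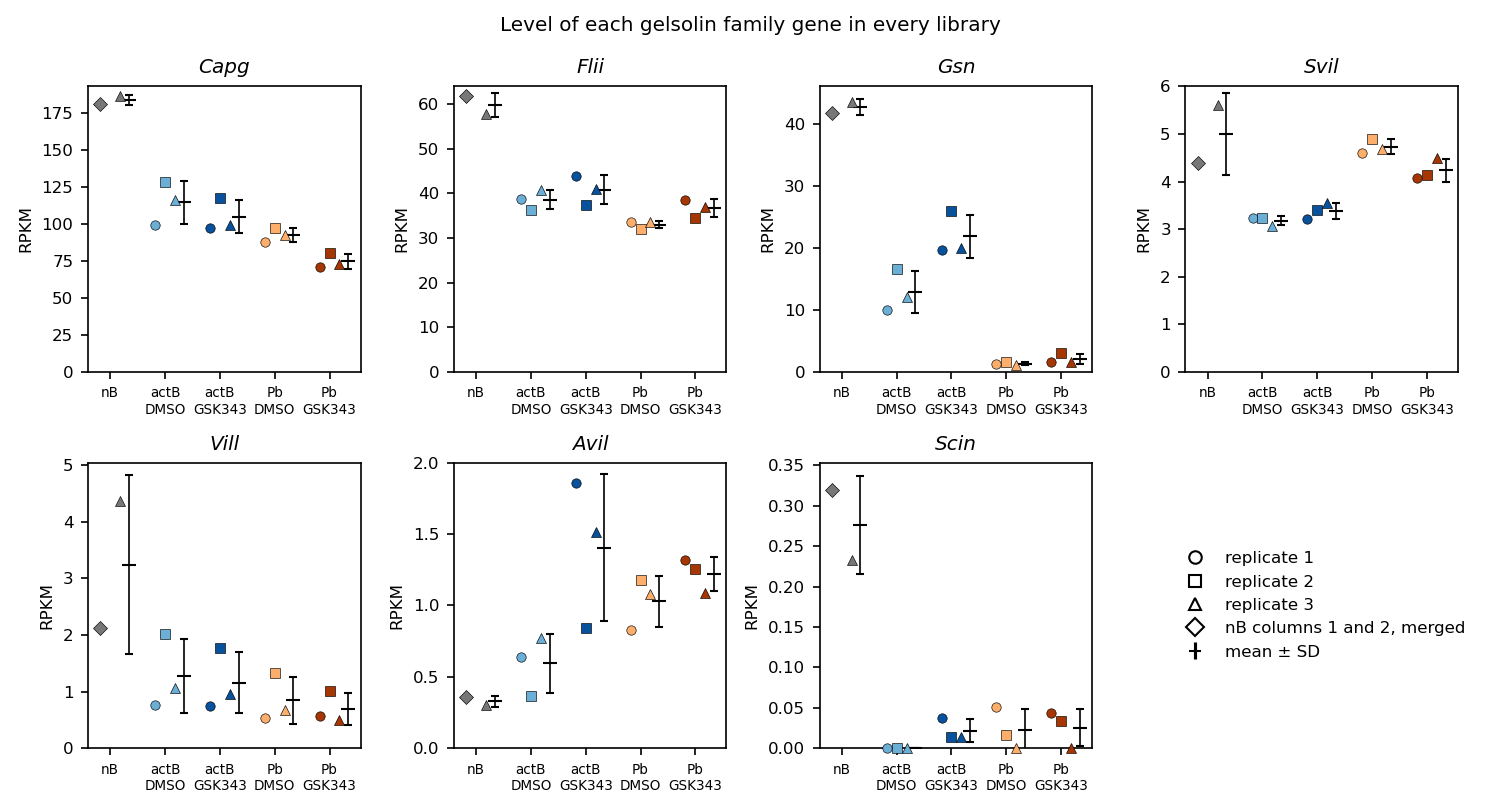
Level in RPKM (vertical axis, linear from 0, its own scale in each panel) of the 7 gelsolin family genes in every library of the 5 groups, with the group mean and SD beside the points. Gsn fell from 41.7 and 43.5 in nB to between 1.03 and 1.51 in Pb DMSO, while Scin was read at 0.233 to 0.319 in nB and at no more than 0.0514 in culture.

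Gsn had the widest range of the family. Its level was 41.7 and 43.5 RPKM in the 2 nB libraries. In actB DMSO it was 9.97, 16.6 and 12.0 RPKM in replicates 1, 2 and 3, and in actB GSK343 it was 19.57, 25.89 and 20.02. In Pb DMSO it was 1.29, 1.51 and 1.03 RPKM, and in Pb GSK343 it was 1.651, 3.004 and 1.574, from 63 to 177 reads per library. The order of the groups was thus nB, actB GSK343, actB DMSO, Pb GSK343, Pb DMSO, and no neighbouring groups overlapped.

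Capg and Flii were also highest in nB, with smaller steps between groups, and with GSK343 Flii had the higher mean and Capg the lower one in both cell types. Capg was at 181.1 and 186.2 RPKM in nB, 99.4, 128.2 and 115.9 in actB DMSO, and 97.4, 117.5 and 99.2 in actB GSK343. In Pb DMSO Capg was at 87.6, 97.3 and 92.4 RPKM, and in Pb GSK343 at 70.8, 80.1 and 72.7. The actB groups overlapped for Capg, and both Pb groups lay below both actB groups, Pb DMSO by less than 0.1 RPKM at the closest pair of libraries. Flii was at 61.7 and 57.9 RPKM in nB and between 36.3 and 43.9 in the 6 actB libraries, again with overlap between DMSO and GSK343. It was at 33.5, 32.0 and 33.5 RPKM in Pb DMSO and at 38.6, 34.5 and 36.9 in Pb GSK343, so that Pb GSK343 lay above Pb DMSO and overlapped with actB.

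Svil and Avil each had an order of their own, while the group means of Vill had the same order as those of Capg. Svil was at 4.38 and 5.61 RPKM in nB, between 3.07 and 3.55 in actB and between 4.59 and 4.90 in Pb DMSO, a dip in actB with nB and Pb DMSO overlapping. Avil was lowest in nB at 0.358 and 0.302 RPKM, and was at 0.641, 0.369 and 0.774 in actB DMSO, 1.86, 0.842 and 1.51 in actB GSK343, 0.831, 1.18 and 1.077 in Pb DMSO and 1.31, 1.25 and 1.09 in Pb GSK343. Those Avil values rest on 21 to 148 reads per library, from which reads in the exon bases shared with Tsfm could not be set apart. For Avil, actB GSK343 overlapped with both Pb groups. Vill was at 2.12 and 4.36 RPKM in nB and between 0.506 and 2.01 in culture, and the 4 cultured groups overlapped with one another.

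Scin, which failed the filter, was read 22 and 16 times in the nB libraries, 0 times in each actB DMSO library, and 0 to 3 times in the other cultured libraries. Its mean of 0.827 RPM in nB was at least 6.53-fold higher than the 0.127 RPM that 3 reads in an actB DMSO library would give. With no filter on expression limma gave an adjusted p of 1.16e-06 for actB DMSO against nB and 2.39e-06 for Pb DMSO against nB. In that fit the cultured Scin values lay at the floor, with no spread at all in actB DMSO. These p-values therefore do not measure variation between cultured replicates of Scin, and no call is drawn from them. Whether other cells in the nB libraries supplied the Scin reads was not tested. Vil1, the villin gene of intestinal microvilli and a family gene outside the list, was read 1 to 9 times per library in all groups.

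To see how the family moved as naive cells became activated, actB DMSO was compared with nB. Of the 6 genes tested 5 were lower in actB and none was higher, with a median log2 change of -0.66 against 0.05 for all genes, in a comparison that called 36.3% of all 11299 genes lower and 40.9% higher. Gsn was 3.34-fold lower on the log2(RPKM + 0.25) scale (log2 change -1.74 ± 0.25 SE, limma adjusted p = 4.16e-05), the largest of these differences. Capg (log2 change -0.69 ± 0.10, adjusted p = 5.80e-05), Flii (-0.63 ± 0.07, adjusted p = 5.49e-06) and Svil (-0.60 ± 0.09, adjusted p = 7.55e-05) fell by similar amounts. Vill fell by 1.19 (SE 0.43, adjusted p = 0.0222), and without nB replicate 3 it had a log2 change of -0.71 (adjusted p = 0.244). Its adjusted p was also 0.0800 without actB DMSO replicate 1 and 0.0545 without actB DMSO replicate 3, at log2 changes of -0.94 and -1.13. Avil had a log2 change of 0.51 (SE 0.26, adjusted p = 0.0883). Without actB DMSO replicate 2 its adjusted p was 0.0202, and without any other single library of these groups it was 0.151 to 0.267. Blocked on the replicate number, Avil had an adjusted p of 0.0379 when the merged nB library stood as number 1 and of 0.120 when it stood as number 2.

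The marker sums moved with the same contrast. Markers of monocytes, macrophages and granulocytes went from 252.2 and 309.9 RPKM in nB to between 53.7 and 89.2 in actB DMSO, of which Mpeg1 supplied 48.1 to 84.9, and 6 of the 11 were under 0.1 RPKM in all 3 actB DMSO libraries. Those of dendritic cells were 51.1 and 60.2 RPKM in nB and 38.9 to 65.4 in actB DMSO, where Flt3 alone was at 38.5 to 64.6 and Siglech, which defines plasmacytoid dendritic cells, at 0 to 0.0259. The part of other cells in the lower levels of the 5 family genes was not tested.

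For the step from activated cells to plasmablasts, Pb DMSO was compared with actB DMSO. Gsn, Capg and Flii were lower in Pb and Svil and Avil were higher, 5 of 6 genes, where 42.4% of all genes were called lower and 27.3% higher. Gsn was 8.48-fold lower (log2 change -3.08 ± 0.23, limma adjusted p = 1.08e-07), by far the largest change of the family. Capg fell by 0.30 (SE 0.09, adjusted p = 0.0121) and Flii by 0.22 (SE 0.07, adjusted p = 0.00899). Svil was 1.45-fold higher (log2 change 0.54 ± 0.08, adjusted p = 1.03e-04), and Avil 1.54-fold higher (0.62 ± 0.23, adjusted p = 0.0305). Vill had a log2 change of -0.46 (SE 0.38, adjusted p = 0.297), and blocking on the replicate number gave an adjusted p of 0.00222, a fit that called 76.2% of all genes.

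The median log2 change of all genes in this comparison was -0.116, and that of the 6 family genes was -0.26. With each library scaled to the same median, Capg had a log2 change of -0.18 and Flii one of -0.11, and the family had 1 gene lower (Gsn) and 2 higher (Svil, Avil), with adjusted p = 0.102 for Capg and 0.172 for Flii. Without actB DMSO replicate 2, the library with the highest Gsn and Capg of its group, the adjusted p was 0.0532 for Capg and 0.131 for Avil, whose log2 change was then 0.41, and without Pb DMSO replicate 2 or 3 it was 0.0967 or 0.0755 for Avil. Gsn and Svil passed the test in each of these fits. The summed markers of monocytes, macrophages and granulocytes were 4.48 to 7.99 RPKM in Pb DMSO against 53.7 to 89.2 in actB DMSO, and Mpeg1 supplied 3.90 to 6.94 and 48.1 to 84.9 of these, while Lyz2 was at most 0.588 RPKM and Csf1r at most 0.0353 in either group. Their part in the Gsn difference was not tested.

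Over the whole course, Pb DMSO against nB, Gsn was 28.3-fold lower (log2 change -4.82 ± 0.25, limma adjusted p = 1.68e-09). Capg (log2 change -0.99), Flii (-0.85) and Vill (-1.66) were also lower, Avil was 2.19-fold higher (adjusted p = 0.00137), and Svil did not pass the test (log2 change -0.07, 95% interval -0.27 to 0.14, adjusted p = 0.525). The 6 genes had a median log2 change of -0.92 against -0.02 for all genes, of which 41.1% were called lower and 39.5% higher. Vill had an adjusted p of 0.0628 without nB replicate 3, and Svil one of 0.0316 without the merged nB library, with a log2 change of -0.24. This comparison shares its groups with the previous comparisons and is not separate evidence.

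**Figure D2:**
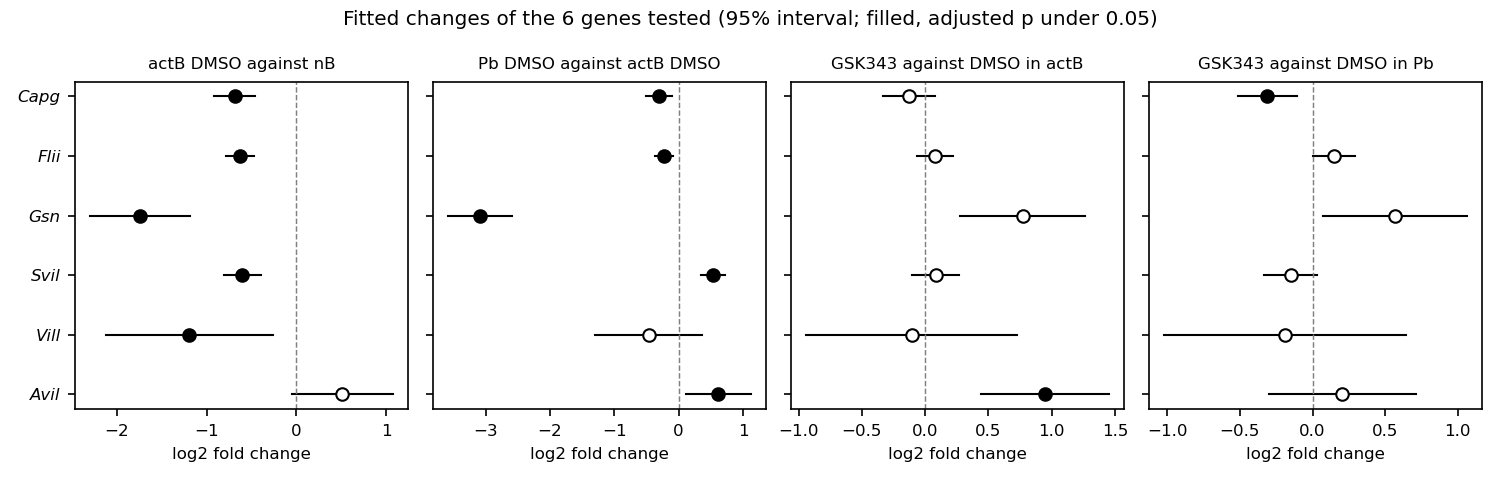
Fitted log2 fold change on the log2(RPKM + 0.25) scale (horizontal axis) with its 95% interval for the 6 genes tested, in 4 comparisons whose axes have different scales; filled points have an adjusted p under 0.05. Gsn stands apart in Pb DMSO against actB DMSO at -3.08, and in both GSK343 comparisons Gsn lies above 0 with open points and Capg below it, filled in Pb.

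GSK343 was set against DMSO in actB to ask which family genes respond when EZH2 is inhibited. Avil was the 1 member called in the fit without the replicate block. That fit called 8.20% of all genes higher and 2.16% lower. The median log2 change of the 6 genes was 0.08, and that of all genes 0.03. Avil was 1.93-fold higher with GSK343 (log2 change 0.95 ± 0.23, limma adjusted p = 0.0229), and the ratio of GSK343 to DMSO between libraries of the same number was 2.90, 2.28 and 1.96. Exons of Avil share 165 bases with Tsfm, and the part of reads from there in this difference was not tested. The Avil call rested on few reads, 27 to 57 per library in DMSO and 63 to 148 in GSK343. It was lost without actB DMSO replicate 1 (adjusted p = 0.0545) or 2 (0.0577), and without actB GSK343 replicate 1 (0.0870) or 3 (0.0852), while the log2 change stayed between 0.740 and 1.002 on the log2 scale in those fits.

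Gsn was higher with GSK343 in every same-numbered pair of actB libraries, by ratios of 1.96, 1.56 and 1.66, and the groups did not overlap. Its log2 change was 0.77 (SE 0.23, 95% interval 0.27 to 1.27) and its limma adjusted p was 0.0513. Blocking on the replicate number gave an adjusted p of 0.00346, where 21.0% of all genes were called, and by edgeR's quasi-likelihood test on the reads it was 0.0375. Without actB DMSO replicate 2 it was 0.0198, and without any other single library it was 0.0837 to 0.184, the highest without actB DMSO replicate 1. With only the actB groups in the fit it was 0.108, so whether Gsn passed the test turned on these choices. Capg (log2 change -0.13, 95% interval -0.33 to 0.08), Flii (0.08, -0.07 to 0.22), Svil (0.08, -0.10 to 0.27) and Vill (-0.11, -0.94 to 0.73) did not pass the test. GSK343 libraries lay wholly above DMSO libraries for Gsn, Avil and Scin, the last with 1 to 3 reads against 0, and overlapped with them for the other 4 genes, beside 25.9% of all genes with no overlap. The summed monocyte, macrophage and granulocyte markers overlapped between actB DMSO (53.7 to 89.2 RPKM) and actB GSK343 (63.6 to 79.1), Lyz2 was at 0.270 to 0.588 and 0.348 to 1.13 RPKM, and Itgam was at 3.51 to 4.66 and 6.60 to 12.8. The dendritic cell sum was 38.9 to 65.4 and 19.98 to 41.6 RPKM. The plasma cell sum did not overlap, at 484.9 to 522.3 RPKM in actB DMSO and 549.6 to 669.2 in actB GSK343. The part of these markers' cells in the Gsn and Avil differences was not tested.

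In Pb the member called in the fit without the replicate block was Capg. It was 1.24-fold lower with GSK343 (log2 change -0.31 ± 0.09, limma adjusted p = 0.0483). That fit called 5.0% of all genes lower and 7.90% higher. Capg was lower in each same-numbered pair, at ratios of 0.809, 0.823 and 0.787 of the DMSO level, and the groups did not overlap. Its adjusted p was 0.0426 by edgeR, and between 0.0724 and 0.158 when Pb DMSO replicate 1, 2 or 3 or Pb GSK343 replicate 1 or 3 was left out. Gsn was higher in each pair, at ratios of 1.28, 1.99 and 1.53, with a log2 change of 0.57 (SE 0.23, 95% interval 0.07 to 1.06) and an adjusted p of 0.130. Blocking on the replicate number, which called 24.2% of all genes, gave adjusted p = 0.0103 for Gsn and 0.0240 for Flii, whose log2 change was 0.15 (SE 0.07, adjusted p = 0.168 without the block). By edgeR the adjusted p of Gsn was 0.155, and with replicate 2 left out of every cultured group it was 0.0306, at a log2 change of 0.41. Without Pb GSK343 replicate 2 alone the log2 change of Gsn was 0.30 (adjusted p = 0.384). The study names Gsn among Blimp-1 target genes that rose in Pb with GSK343. Here Gsn had the same direction. Limma with the block called it, while limma without the block and edgeR, also without a block, did not.

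Svil (log2 change -0.15, 95% interval -0.34 to 0.03), Avil (0.21, -0.30 to 0.71) and Vill (-0.19, -1.02 to 0.65) did not pass the test in Pb. Libraries with GSK343 lay wholly above those with DMSO for Gsn and Flii and wholly below for Capg and Svil, 4 of 7 genes, beside 34.1% of all genes with no overlap. The B cell marker sum was 935.2 to 954.1 RPKM in Pb DMSO and 758.3 to 901.0 in Pb GSK343, the plasma cell sum was 3083 to 3234 and 3151 to 3417, and the monocyte, macrophage and granulocyte sum was 4.48 to 7.99 and 3.52 to 7.49. Their part in the Gsn and Capg differences was not tested.

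**Figure D3:**
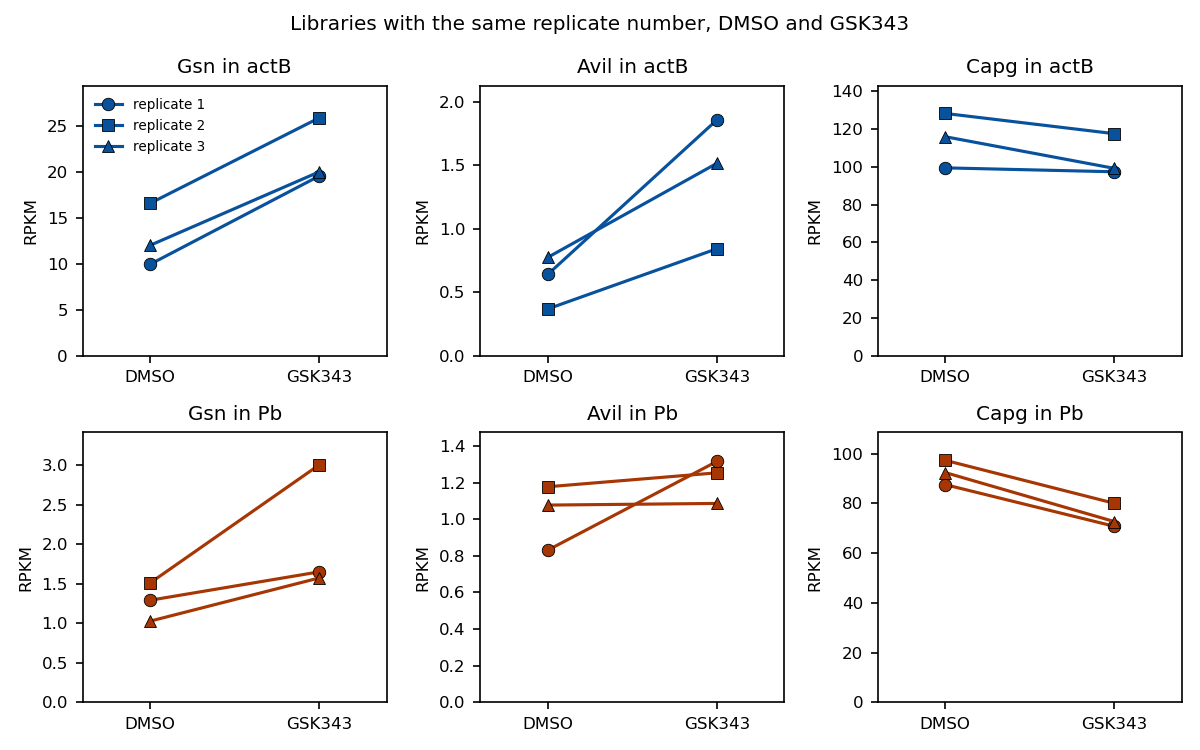
Level in RPKM (vertical axis, linear from 0) of Gsn, Avil and Capg in DMSO and GSK343 libraries, with lines joining the libraries that carry the same replicate number, in actB (upper row) and Pb (lower row). All 3 lines rise for Gsn in both cell types and all 3 fall for Capg in both, while Avil rises by ratios of 1.96 to 2.90 in actB and 1.01 to 1.58 in Pb.

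Whether the response to GSK343 differed between Pb and actB was tested with an interaction term, and none of the 6 genes passed (adjusted p from 0.523 to 0.996 by limma, 0.543 or more by edgeR), where 0.0974% of all genes were called higher and 0.150% lower, and 0.735% with the replicate block. Before adjustment limma gave 1 gene under 0.05, Avil, with a difference of -0.74 (95% interval -1.46 to -0.03; adjusted p = 0.523). Over all genes tested 28 passed after adjustment by limma, 31 by edgeR, and 1017 had an unadjusted p under 0.05. For Gsn the difference of the log2 changes was -0.20 (95% interval -0.90 to 0.50), which includes both no difference and a loss of more than the actB effect of 0.77.

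The family was set beside 69 other genes that encode actin or act on it, of which 65 were tested, listed by role. The actin genes Actb and Actg1 stand in the monomer-binding list. In actB DMSO against nB, 12 rose and 38 fell, beside 40.9% and 36.3% of all genes, with a median log2 change of -0.25 against 0.05 for all genes. In Pb DMSO against actB DMSO, 4 rose and 51 fell, beside 27.3% and 42.4% of all genes, with a median of -0.55 against -0.12. Each role had more genes lower than higher in that step. Lower were 10 of 12 severing and cofilin genes, 8 of 9 barbed end capping genes and 6 of 7 actin and monomer-binding genes. So were 8 of 9 Arp2/3 complex genes, 8 of 11 WASP and WAVE genes, 5 of 7 formins and 6 of 10 bundling genes. The median of the 6 family genes in that step was -0.26, as the plot of the actin lists shows, with Svil and Avil among the few actin genes that were higher.

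Named genes of these lists had large changes. Lcp1 (L-plastin, the leukocyte filament bundler) fell from 257.4 ± 11.2 to 58.7 ± 6.30 RPKM between actB DMSO and Pb DMSO (SD, n = 3 each; limma adjusted p = 1.99e-09). Twf2 (twinfilin, a capping protein) fell from 29.8 ± 0.883 to 10.2 ± 0.502 RPKM, and Carmil1, a regulator of capping protein, from 3.56 ± 0.954 to 0.590 ± 0.142. Cttn (cortactin, which stabilizes branched filaments) rose from 0.418 ± 0.149 to 2.87 ± 0.387 RPKM (adjusted p = 2.26e-07). Between nB and actB DMSO the bundlers Fscn1 (log2 change -3.78) and Actn1 (-3.59) and the capping protein Add3 (-2.40) fell, and the formin Diaph3, which nucleates filaments, rose by 3.39. In Pb DMSO against nB, 5 of the 65 rose and 51 fell, beside 39.5% and 41.1% of all genes, led by Fscn1 (-4.32), Carmil1 (-3.12) and Add3 (-3.05), and by Diaph3 among those that rose (3.58). The part of other cells of the nB libraries in these differences from nB was not tested.

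GSK343 moved fewer of these genes. In actB 8 of 65 were higher and none was lower, beside 8.20% and 2.16% of all genes, with a median log2 change of 0.05 against 0.03 for all genes, and the largest with a level over 2 RPKM were Limk1, the kinase that inactivates cofilin (0.43 ± 0.10, limma adjusted p = 0.0230), Fmnl3 (0.31 ± 0.06, adjusted p = 0.00697), Twf2 (0.31 ± 0.07, adjusted p = 0.0134) and the crosslinker Flna (0.29 ± 0.09, adjusted p = 0.0497). In Pb 4 were higher and 6 lower, beside 7.90% and 5.0% of all genes. The largest with a level over 2 RPKM and no overlap were Fmnl3 (0.35 ± 0.06) and Cyfip1 of the WAVE complex (0.30 ± 0.07), both higher. Lcp1 (-0.51 ± 0.10) and the tropomyosin Tpm4 (-0.37 ± 0.04) were lower. Larger changes among called genes outside these limits included Actn1, at 1.03 ± 0.17 in actB and 0.81 ± 0.17 in Pb. The interaction called none of the 65.

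**Figure D4:**
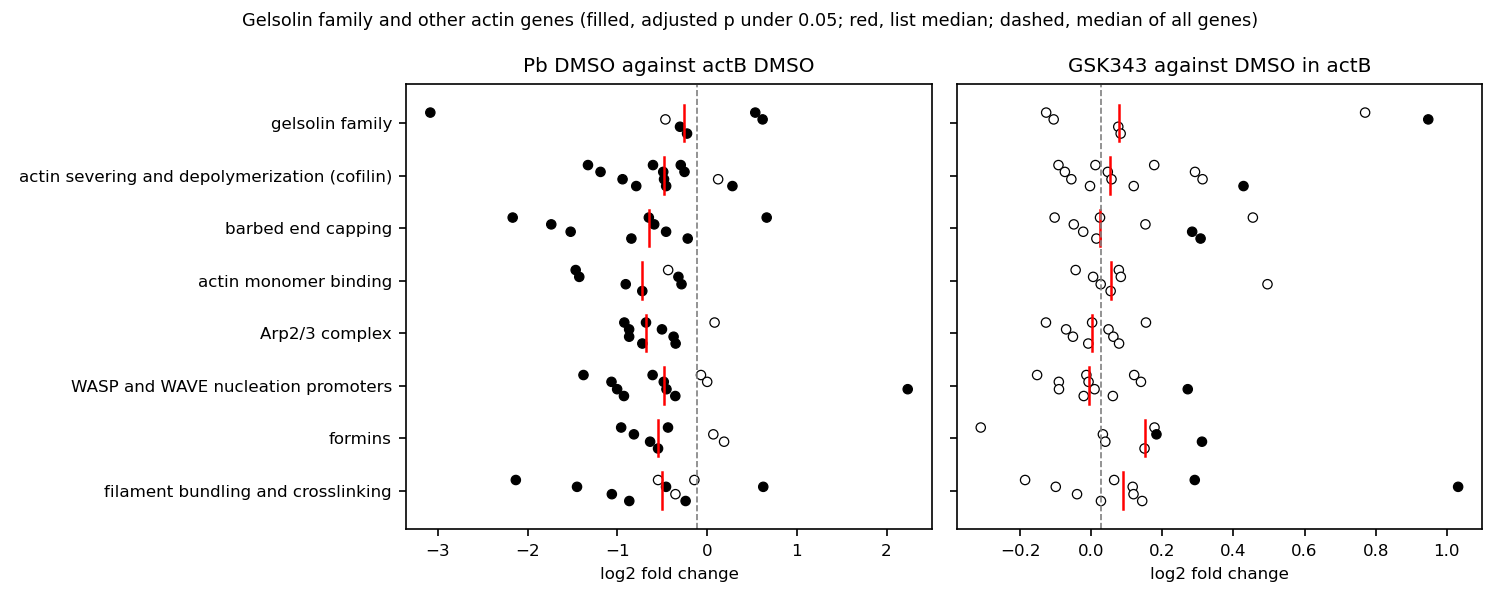
Log2 fold change on the log2(RPKM + 0.25) scale (horizontal axis) of each gene tested in the gelsolin family and in 7 lists of other actin genes (rows), for Pb DMSO against actB DMSO and for GSK343 against DMSO in actB; filled points have an adjusted p under 0.05, red bars are list medians and the dashed line is the median of all genes. In the left panel 51 of the 65 other genes are filled and lower, and Gsn at -3.08 is the lowest point of all lists.

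By correlation over the 14 libraries, which fall into 3 cell types, the genes most like each member were as follows. Gsn was closest to Aldh2 (mitochondrial aldehyde dehydrogenase) and Padi2 (a peptidylarginine deiminase), each with Pearson r = 0.993. Capg was closest to Cmtr1 (r = 0.987) and Zfp263 (0.986), and Flii to Naa60 (0.989). Svil was closest to Il5ra, the IL5 receptor alpha chain (0.956), and Vamp1 (0.948), and Avil to Ass1 (0.951) and Rdx, the membrane-actin linker radixin (0.933). Vill was closest to H2-K2 (0.970), whose reads may be split with near-identical class I genes, and Eps8l1 (0.964). The libraries share their cell type and replicate number, so these values describe likeness only.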

How the data were processed

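Poly(A) RNA from 5 groups of sorted or isolated mouse B cells was sequenced as 50 bp paired-end reads. The authors mapped reads to mm9 with TopHat2 (per the labels), counted those over exons of unique Entrez genes with GenomicRanges, and deposited reads per 1000000 (RPM) for each library under an RPKM file title. Column totals are 1000000, and 100% of nonzero values are whole multiples of 1 read to within 0.0232 reads, from which reads were recovered. Whether counting used strand is not stated. Dividing RPM by the gene length in the table gave RPKM, and 92 rows with no symbol (at most 0.0905% of reads) were left out.

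nB replicates 1 and 2 were merged. A gene was tested if 3 or more of the 15 columns reached 1 RPKM, using limma 3.58.1 under R 4.3.3 (eBayes with trend, 5 groups, 9 residual degrees of freedom) on log2(RPKM + 0.25), which understates changes of low genes. All adjusted p-values are two-sided, by the Benjamini-Hochberg method over all genes tested. They come from limma or, where named, from edgeR 4.0.16 (quasi-likelihood, recovered reads, no replicate block, 11146 genes). Genes were called at an adjusted p under 0.05. The scripts were tested on simulated data. The study describes biological replicates, and the labels do not say what the replicate number marks; p-values measure the spread between these samples. The numbers pair the samples: deviations from group means correlated at r of 0.158 to 0.502 (number 1), 0.435 to 0.713 (number 2) and 0.219 to 0.356 (number 3) between same-numbered cultured libraries, 6 pairs each, and at -0.603 to 0.370 over 36 pairs of different numbers. The main calls come from the fit without the number as a block, which leaves the spread between numbers in the error. The fit with the number as a block was an alternative, beside other pseudocounts, filters, scalings, spread estimates and left-out libraries. Leaving replicate 2 out of every cultured group was chosen after seeing the data.

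The members and gene lists were chosen with earlier results of these data known. Genes named are all members, Vil1, Ezh2, up to 4 called genes of the actin lists per comparison with the largest change (a group mean reaching 2 RPKM, groups not overlapping), and the 2 genes most correlated with each member, of which 1 is not reported here. Promoter windows are RefSeq's (GRCm38.p6), matched to mm9 by sequence, and gene positions are from GENCODE vM1.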

Additional observations from a re-analysis of the deposited data

How the results depend on the processing

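Over all alternatives 722 values kept their direction and side of the threshold, 30 lost and 16 gained a call, and 12 changed sign. Of 6 genes, 5 were called in Pb DMSO against actB DMSO, and 3 with median scaling, quantile normalization or edgeR with RLE factors. Leaving out single libraries gave 3 to 5 there, 4 to 6 in the nB comparisons, 0 to 1 for GSK343 in actB and in Pb, and 0 for the interaction. In Pb DMSO against nB 3 were called with the filter at 3 RPKM, since Avil and Vill then left the test. For GSK343 in actB 1 gene was called, and 2 (Avil and Gsn) with a pseudocount of 1, all 15 columns, the replicate block, edgeR with TMM or RLE factors, or without replicate 2 (added after seeing the data), and 0 with quantile normalization or only the groups compared. For GSK343 in Pb 1 was called, 0 with no filter, quantile normalization or eBayes without trend, 3 with the replicate block and 2 without replicate 2. Except for the calls of Gsn, Flii, Vill and Avil given in the report, the block changed no other call. The cause of these changes was not tested.

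Changes of sign concerned values near 0. Svil in Pb DMSO against nB was 0.013 with quantile normalization and -0.24 to 0.10 over single libraries left out, and Svil with GSK343 in actB was -0.030 with quantile normalization. Over single libraries left out, Vill with GSK343 was -0.40 to 0.22 in actB, -0.42 to 0.11 in Pb and -0.41 to 0.21 for the interaction, which was 0.0080 with quantile normalization. The ratio of Gsn to Capg in nB was 0.232 in RPKM and 0.547 in RPM, since the deposited lengths differ. Depth limits Scin, Avil and, in Pb, Gsn and Vill. Vill was read 34 to 88 times per library in Pb DMSO and 32 to 66 times in Pb GSK343.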

Other observations

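The replicate number had a place of its own in the family. Gsn, Capg and Vill were each highest in replicate 2 in 4 of 4 cultured groups, and Flii was lowest in replicate 2 in 4 of 4. Svil was highest in replicate 2 in 2 of the 4 groups. Avil was highest there in 1 and lowest in 2. For Vill the gap was wide: replicate 2 stood at 2.01 RPKM in actB DMSO against 0.766 and 1.06, and at 1.32 in Pb DMSO against 0.537 and 0.679. The summed markers of monocytes, macrophages and granulocytes were also highest in replicate 2 of each cultured group, at 89.2 against 53.7 and 59.4 RPKM in actB DMSO and at 7.49 against 3.52 and 4.45 in Pb GSK343. Mpeg1 alone was at 48.1 to 84.9 RPKM in actB DMSO and at 2.34 to 6.19 in Pb GSK343, so these sums were mostly Mpeg1. The place of replicate 2 was noticed after the values were seen and was not tested.

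The share of the family's summed RPKM also differed with GSK343. Capg made up 66.8% of it in actB DMSO and 60.3% in actB GSK343, and 69.3% and 62.4% in Pb. Gsn made up 7.45% and 12.6% in actB, and 0.957% and 1.73% in Pb. Flii made up 24.8% in Pb DMSO and 30.8% in Pb GSK343. These shares were not tested.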
